A study of Mus musculus with 12 samples.

Results

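Granulocyte-monocyte precursors (GMPs), from which granulocytes and monocytes develop in bone marrow, were compared between mice with a knock-in of the variant form of human GFI1 (SNP) and mice with a knock-in of its common form (wtKI). The comparison uses 6 of the 12 arrays of the study, SNP 1 to SNP 3 and wtKI 1 to wtKI 3, across 14179 genes. The labels give wtKI as human Gfi1-wt knock-in and SNP as human Gfi1-SNP knock-in, so both groups carry a human form of the gene and differ by design in which form it is. The other 6 arrays, 3 of wild-type (WT) and 3 of Gfi1 knock-out (KO) GMPs, entered the estimate of spread. They are quoted beside some results only. Where they are not quoted, the text does not say whether SNP or wtKI is the group apart from them. All mice are labelled C57BL/6. Cells were obtained by fluorescence-activated sorting, and their RNA was amplified for hybridisation to Affymetrix Mouse Gene 1.0 ST arrays. Zygosity, age, sex and the number of mice behind an array are not stated in the labels, and a p-value here measures only how these samples spread, which may be technical. The design text names as its question which target genes the variant form regulates differently, with acute myeloid leukaemia in view.

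GFI1 is a zinc-finger protein that binds DNA and represses transcription by recruiting the demethylase KDM1A (LSD1), the corepressors RCOR and histone deacetylases through its amino-terminal SNAG domain. In blood formation it restrains the monocytic programme and permits granulocytic differentiation, and it limits the proliferation of stem cells. GFI1B, its close relative, acts mainly in the erythroid and megakaryocytic lineages.

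Values are log2 signals, and a gene's value on an array is the median of the probe sets (short exonic stretches) that carry its symbol alone. Differences are SNP minus wtKI on the log2 scale with their standard error, from limma over 12 arrays unless the text says without SNP 1, and adjusted p-values are Benjamini-Hochberg values over all 14179 genes. A gene was called at an adjusted p under 0.05.

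SNP 1 stood apart from the other arrays of the comparison, and KO 1 had much the same traits. The median correlation of SNP 1 with the other 11 arrays was 0.633, and that of KO 1 was 0.701. On the 10 arrays other than SNP 1 and KO 1 it was between 0.836 and 0.886. Probe sets of one gene scattered more on SNP 1 and KO 1, with a median standard deviation within genes of 0.702 and 0.700. On those 10 arrays it was between 0.309 and 0.433. Results are therefore set beside the fit without SNP 1. KO 1 remained in the estimate of spread of both fits. The Y-linked gene Eif2s3y, a translation initiation factor subunit, was at 8.74 on wtKI 1, 1.94 on wtKI 2 and 2.07 on wtKI 3, and between 8.35 and 8.86 on the 3 SNP arrays. By this gene wtKI 2 and wtKI 3 read as female and the other 4 arrays of the comparison as male, and a fit with sex as a term is among the alternatives.

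The cells carried genes of their label, less clearly on SNP 1. Mpo, the myeloperoxidase of primary granules, was between 10.81 and 11.55 on the 12 arrays, and Ctsg, the granule protease cathepsin G, between 9.57 and 11.57. Cd34, a progenitor surface protein, was between 10.26 and 10.76 on 11 arrays and 7.35 on SNP 1. Kit, the receptor for stem cell factor, was at 6.86 on SNP 1 and at or above 7.79 elsewhere. The median probe set of SNP 1 was at 7.32. Elane was not analysed here. SNP 1 was the lowest array for Mpo, Ctsg, Cd34, Kit and Prtn3. Fcgr3, which encodes an Fc receptor used to define GMPs, went the other way, at 8.04, 7.17 and 7.82 on wtKI 1 to 3 and 8.93, 8.67 and 8.06 on SNP 1 to 3. Its groups did not overlap, and the difference was 0.88 ± 0.35 with SNP 1 and 0.69 ± 0.38 without it.

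Gfi1 itself is read by 5 probe sets designed on the mouse gene, which a human coding sequence need not match. Its gene value was 6.28, 5.93 and 6.27 on wtKI 1 to 3 and 6.65, 6.54 and 6.61 on SNP 1 to 3. The groups do not overlap, with the SNP arrays higher by 0.44 ± 0.22, and the difference was not called (adjusted p = 0.561 by limma). The middle probe set was 10532127 on the wtKI arrays, SNP 2 and SNP 3, and 10532129 on SNP 1. On 10532127 SNP 1 was at 6.14, inside the wtKI range, so the lack of overlap rests on this switch. Without SNP 1 the difference was 0.42 ± 0.24. The 5 probe sets did not share a direction. Probe set 10532125, the brightest, was at 9.85, 9.98 and 9.74 on wtKI and 8.35, 9.87 and 9.96 on SNP, so that SNP 1 alone was low. Probe set 10532126 was low on both knock-ins, between 2.36 and 3.65 on wtKI and between 2.89 and 3.83 on SNP, while the KO arrays were between 6.43 and 6.74. Probe set 10532130 gave the largest difference, 0.94 ± 0.47, with SNP 1 at 6.97 and the other SNP arrays at 5.83 and 5.86. The sources used here do not say which probe sets match the human sequence. Gfi1b was 6.42, 6.58 and 6.64 on wtKI 1 to 3 and 6.63, 6.30 and 6.45 on SNP 1 to 3, groups that overlap, with a difference of -0.09 ± 0.32, -0.18 without SNP 1. The 10 measured genes nearest to Gfi1 on chromosome 5, 5 on each side, lay between -0.97 and 0.59, with 4 higher and 6 lower and a smallest adjusted p of 0.554.

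Across all genes the comparison called 1 gene, Rplp0, which is 0.00705% of the 14179 tested. Its gene value was higher in SNP, but 3 of its 5 probe sets were not. At an unadjusted p under 0.05 there were 568 genes higher (4.01%) and 696 lower (4.91%) in SNP. The 3 SNP arrays and the 3 wtKI arrays did not overlap for 2008 genes (14.2%), of which 1002 were higher (7.07%) and 1006 lower (7.09%). Without SNP 1 no gene was called by limma, and 762 genes (5.37%) had an unadjusted p under 0.05, 332 higher (2.34%) and 430 lower (3.03%). The median standard error was 0.29 in both fits.

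Many differences were larger with SNP 1. Genes that differed by at least 1 on the log2 scale numbered 728 (5.13%) with it and 312 (2.2%) without it. The sign of the difference was the same with and without SNP 1 for 78.9% of genes. At an unadjusted p under 0.05, 501 genes were shared by both fits with one sign, 763 appeared only with SNP 1, and 261 only without it.

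**Figure D1:**
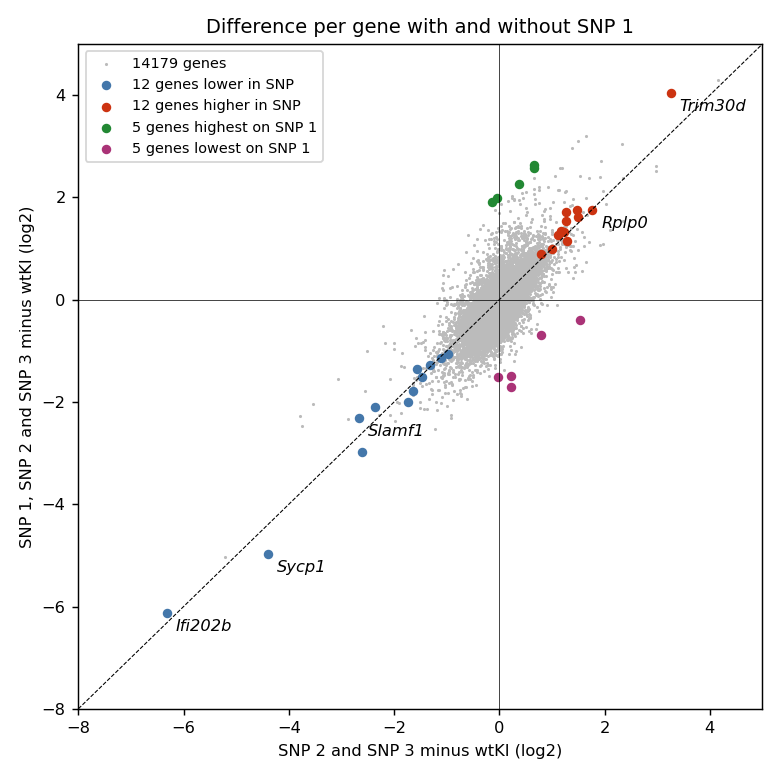
Each grey point is 1 of 14179 genes, with its difference from wtKI (log2) over SNP 2 and SNP 3 on the horizontal axis and over all 3 SNP arrays on the vertical axis, and the dashed line marks equal values. The 12 genes lower and 12 genes higher in SNP by rule lie close to the line, with Ifi202b at -6.32 and -6.12, while the 10 genes set by SNP 1 lie off it.

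The genes described next are the 12 in each direction with the smallest limma p among those whose groups do not overlap, so the lack of overlap is part of the choice and is no finding. The 12 lower genes had differences between -6.12 and -1.07 and adjusted p-values between 0.323 and 0.490. Without SNP 1 the same 12 lay between -6.32 and -0.97. The 12 higher genes lay between 0.90 and 4.05, and between 0.79 and 3.26 without SNP 1. For 8 of the 24, Ifi202b, Sycp1, Fbp1, Ttc8, Prss12, Spata18, Ceacam14 and Loxl2, the 3 arrays of the lower group were all under the 5th percentile of probe sets on their array (4.39 to 5.60 on the 6 arrays). Levels there may not stand above background, and the size of these differences is uncertain. The median of a gene's own probe set differences had the sign of the gene value for all 12 lower genes and for 11 of the 12 higher genes, Rplp0 being the exception.

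Ifi202b was lower in SNP. It encodes a HIN-200 protein, an interferon-inducible binder of DNA, and its level is known to vary between inbred mouse strains. Ifi202b was 8.17, 8.89 and 8.08 on wtKI 1 to 3 and 2.67, 2.10 and 2.02 on SNP 1 to 3. All 3 SNP arrays were under the 5th percentile of probe sets on their array and all 3 wtKI arrays far above it, so the size of the difference is uncertain. As the values stand the difference was -6.12 ± 1.05 (limma adjusted p = 0.323) with SNP 1 and -6.32 ± 1.20 without it. The WT arrays were split, with 7.10 on WT 1 against 2.19 and 1.94 on WT 2 and WT 3. This split enters the standard error of the 12-array fit. The KO arrays were at 2.25, 1.84 and 3.23, near SNP, so outside wtKI only WT 1 was high. When the SNP and wtKI arrays were fitted alone, Ifi202b was the 1 gene called, with a limma adjusted p of 0.00198. Its 3 probe sets differed by -7.03, -6.99 and -3.26, all in one direction. Ifi202b has near-identical relatives in its cluster, and the share of each in these probe sets is uncertain.

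Sycp1, a component of the synaptonemal complex that joins chromosomes in meiosis, was 9.46, 7.004 and 7.79 on wtKI 1 to 3 and 1.99, 4.80 and 2.56 on SNP 1 to 3. The wtKI arrays all lay above the highest SNP array, and the difference was -4.97 ± 0.89. WT 1 was high for the 2 probe sets with the widest gap, at 7.99 and 6.72, while WT 2 and WT 3 were between 0.82 and 3.61. Slamf1, the surface receptor CD150 that marks blood stem cells, was 6.77, 8.22 and 6.70 on wtKI 1 to 3 and 5.65, 4.34 and 4.77 on SNP 1 to 3. Its lowest wtKI array was 1.05 above its highest SNP array, SNP 1, and the difference went from -2.31 ± 0.43 to -2.68 ± 0.43 without SNP 1 (adjusted p = 0.311 by limma). Slamf1 rests on 2 probe sets, which differed by -1.01 and -3.62, and SNP 1 was inside the wtKI range on the first. The WT arrays were at 4.47, 4.40 and 4.35 and the KO arrays at 4.83, 5.79 and 5.34. All of these were below every wtKI array, so wtKI was the group apart.

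Metabolic and lysosomal enzymes were among the lower genes. Ctsl, the lysosomal protease cathepsin L, was 8.12, 9.16 and 8.75 on wtKI 1 to 3 and 7.09, 7.28 and 7.13 on SNP 1 to 3. The SNP arrays lay within 0.19 of each other, below every wtKI array, and the difference of -1.51 ± 0.25 had the smallest p among the lower genes (adjusted p = 0.323 by limma). Fbp1, fructose-1,6-bisphosphatase, a gluconeogenic enzyme, was 6.01, 6.83 and 6.55 on wtKI 1 to 3 and 3.93, 4.86 and 4.58 on SNP 1 to 3. SNP 1 was the lowest of the 6 arrays, and the difference was -2.003 ± 0.34 with it and -1.74 ± 0.34 without it. Ndufs5, an accessory subunit of respiratory complex I, was 8.61, 8.59 and 7.91 on wtKI 1 to 3 and 7.19, 6.93 and 7.17 on SNP 1 to 3. Its difference was -1.27 ± 0.26, on 1 probe set.

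Gdpd3, a glycerophosphodiester phosphodiesterase, was 8.04, 9.51 and 8.02 on wtKI 1 to 3 and 4.80, 5.77 and 6.06 on SNP 1 to 3. Its 9 probe sets were all lower in SNP, by between 0.01 and 5.19 in size, and the difference was -2.98 ± 0.61.

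Membrane and trafficking genes followed. Zdhhc2, an enzyme that attaches palmitate to membrane proteins, was 6.07, 6.94 and 6.62 on wtKI 1 to 3 and 4.99, 3.82 and 4.53 on SNP 1 to 3. SNP 1 was the highest SNP array, and the difference went from -2.09 ± 0.37 to -2.37 ± 0.38 without it. Yif1a, a membrane protein of transport between endoplasmic reticulum and Golgi, was 6.89, 7.35 and 6.91 on wtKI 1 to 3 and 5.79, 5.99 and 6.16 on SNP 1 to 3. The difference was -1.07 ± 0.21, and all 6 probe sets were lower in SNP. Emp1, a membrane protein with 4 spans related to PMP22, was 6.03, 6.98 and 6.73 on wtKI 1 to 3 and 5.64, 5.04 and 4.99 on SNP 1 to 3. SNP 1 was the nearest SNP array to wtKI, and the difference was -1.36 ± 0.29.

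Ttc8, a subunit of the BBSome that carries cargo to cilia, was 5.87, 6.96 and 5.95 on wtKI 1 to 3 and 4.17, 4.30 and 4.96 on SNP 1 to 3. The difference was -1.79 ± 0.33, and all 4 of its probe sets were lower in SNP. Zyg11b, a substrate receptor of CUL2 ubiquitin ligases, was 6.88, 6.89 and 6.81 on wtKI 1 to 3 and 5.66, 5.85 and 5.64 on SNP 1 to 3. The 3 wtKI arrays lay within 0.08 of each other, and the difference was -1.14 ± 0.22, with all 12 probe sets lower in SNP and 6 of them without overlap.

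**Figure D2:**
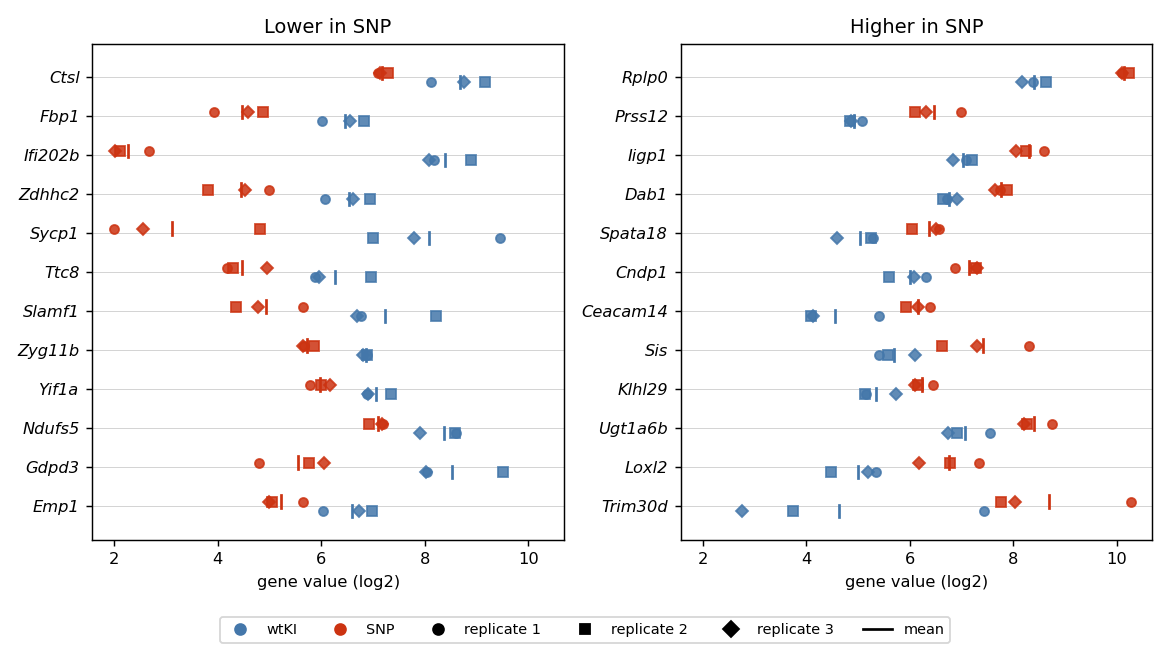
Gene value (log2) on each wtKI array (blue) and SNP array (red) for the 12 genes lower (left) and the 12 genes higher (right) in SNP, with a marker shape per replicate and a bar at each mean. Ifi202b lies between 8.08 and 8.89 on wtKI and between 2.02 and 2.67 on SNP, and Trim30d has the widest wtKI range.

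Rplp0, which encodes the stalk protein P0 of the large ribosomal subunit, was 8.39, 8.62 and 8.17 on wtKI 1 to 3 and 10.10, 10.22 and 10.10 on SNP 1 to 3. All 3 SNP arrays lay within 0.13 of each other and above every wtKI array, and the difference was 1.75 ± 0.20 (adjusted p = 0.0231 by limma). The middle probe set was 10524719 on all 3 SNP arrays, 10524722 on wtKI 1 and wtKI 2 and 10524720 on wtKI 3, so this difference compares levels of different probe sets, and no fold is given. Without SNP 1 the difference was 1.77 ± 0.22 and the adjusted p was 0.0878, above the threshold with 1 array fewer. The WT arrays were at 10.38, 10.28 and 10.41, close to SNP, and the KO arrays at 8.15, 8.63 and 8.56, close to wtKI.

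Rplp0 is measured by 5 probe sets, and 2 of them carry the difference. Probe set 10524719 was at 5.45, 5.35 and 5.50 on wtKI and at 10.10, 10.22 and 10.10 on SNP, a difference of 4.70 ± 0.20, with WT between 10.28 and 10.41 and KO between 5.27 and 5.66. Probe set 10524720 differed by 2.08 ± 0.33. Probe set 10524721, the brightest, was between 11.79 and 11.84 on wtKI and between 11.73 and 11.83 on SNP, a difference of -0.04 ± 0.18. It lay above at least 99.8% of probe sets on every array, where the highest probe set of an array is between 12.23 and 12.44, and whether its signal was saturated was not tested. The 2 others differed by -0.08 ± 0.26 and -1.01 ± 1.14, and the last was set by SNP 1 at 5.51. The median of the 5 differences was -0.04, so the call on Rplp0 holds for the value read as the median and not for most of its probe sets. It was not made when the gene was read by the mean of its probe sets, by median polish or by its brightest probe set. It was also lost when any 1 of the 6 arrays was left out, with limma adjusted p-values between 0.0627 and 0.212 for Rplp0 and differences between 1.64 and 1.86. With sex as a term the difference was 1.78 (limma adjusted p = 0.443).

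**Figure D3:**
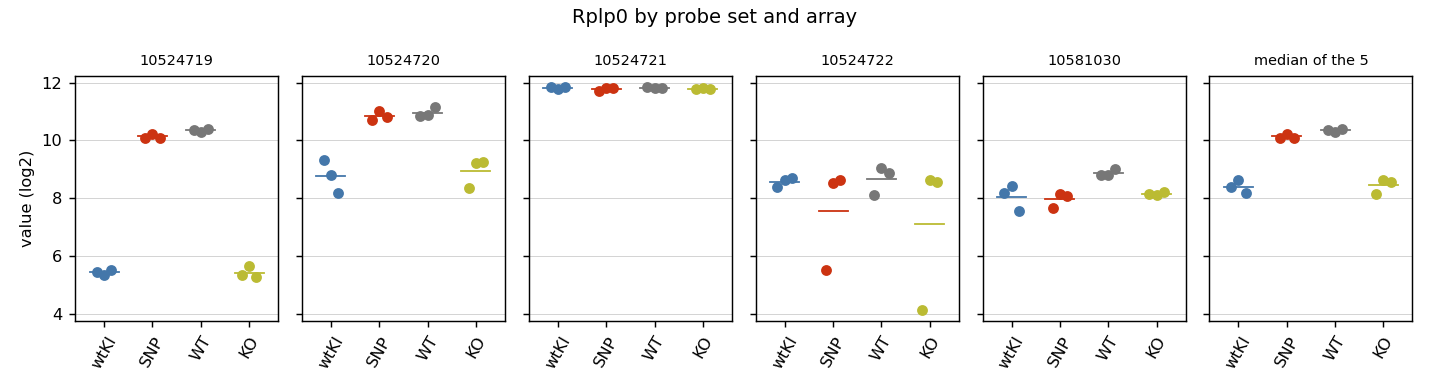
Log2 value of the 5 Rplp0 probe sets and of their median on each array of the 4 genotypes, with a point per array and a bar at each group mean. Probe set 10524719 is near 5.4 on wtKI and near 10.1 on SNP, while probe set 10524721, near the top of the scale, lies between 11.73 and 11.85 on all 12 arrays.

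Secreted and surface proteins come first among the other higher genes. Loxl2, a lysyl oxidase that cross-links collagen, was 5.35, 4.47 and 5.19 on wtKI 1 to 3 and 7.33, 6.78 and 6.18 on SNP 1 to 3. Its difference was 1.76 ± 0.41, and all 3 probe sets separated the groups. Prss12, the serine protease neurotrypsin, was 5.07, 4.85 and 4.87 on wtKI 1 to 3 and 6.98, 6.09 and 6.30 on SNP 1 to 3. SNP 1 was the highest, and the difference was 1.53 ± 0.31 with it and 1.27 ± 0.30 without it. Cndp1, the carnosine dipeptidase, was 6.31, 5.59 and 6.07 on wtKI 1 to 3 and 6.87, 7.27 and 7.30 on SNP 1 to 3. Here SNP 1 was the lowest SNP array, and the difference was 1.16 ± 0.25. Ceacam14, of the carcinoembryonic antigen family, was 5.40, 4.09 and 4.13 on wtKI 1 to 3 and 6.39, 5.93 and 6.15 on SNP 1 to 3. The difference was 1.62 ± 0.36, on 1 probe set in a family of close paralogs.

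Immune effectors made up another group. Trim30d, of a family of tripartite-motif proteins with close paralogs, was 7.43, 3.73 and 2.75 on wtKI 1 to 3 and 10.27, 7.75 and 8.04 on SNP 1 to 3. The wtKI arrays themselves spanned 4.68, wtKI 1 being 0.32 below SNP 2, and the difference was 4.05 ± 1.02. With sex as a term the Trim30d difference was 2.85 ± 1.14. Iigp1, an interferon-inducible GTPase that acts on vacuoles of intracellular pathogens, was 7.08, 7.19 and 6.83 on wtKI 1 to 3 and 8.59, 8.25 and 8.06 on SNP 1 to 3. The difference was 1.26 ± 0.26 with SNP 1 and 1.12 ± 0.28 without it, and the WT mean of 6.26 was below both groups.

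The remaining higher genes are best known from other tissues. Dab1, an adaptor of reelin signalling in neurons, was 6.72, 6.63 and 6.92 on wtKI 1 to 3 and 7.74, 7.88 and 7.65 on SNP 1 to 3. The difference was 0.999 ± 0.21 and stayed at 1.01 without SNP 1. Sis, the intestinal enzyme sucrase-isomaltase, was 5.41, 5.57 and 6.09 on wtKI 1 to 3 and 8.30, 6.63 and 7.30 on SNP 1 to 3. SNP 1 was the highest by 1.00, and the difference was 1.27 ± 0.33 without it against 1.72 ± 0.39 with it. Spata18, a p53-regulated protein of mitochondrial quality control, was 5.28, 5.25 and 4.59 on wtKI 1 to 3 and 6.56, 6.03 and 6.51 on SNP 1 to 3. The difference was 1.33 ± 0.29, and both probe sets separated the groups. Klhl29, of the Kelch-like family, was 5.15, 5.13 and 5.72 on wtKI 1 to 3 and 6.44, 6.16 and 6.09 on SNP 1 to 3, a difference of 0.90 ± 0.20. Ugt1a6b, a glucuronosyltransferase with a near-identical paralog, was 7.55, 6.91 and 6.74 on wtKI 1 to 3 and 8.75, 8.27 and 8.20 on SNP 1 to 3, a difference of 1.34 ± 0.31. Among these 12 higher genes the WT mean was nearer the SNP mean for 4 and nearer the wtKI mean for 8. For the 12 lower genes it was nearer the SNP mean for 8.

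The promoter windows of Rplp0, Ifi202b and Slamf1 are shown because these genes were the one called, the one called with the 6 arrays alone and the stem cell receptor of the comparison. They are RefSeq windows of build GRCm38.p6, 250 bases before to 50 after the start of the gene, written 5′ to 3′ on the gene's strand, with AATC, the core of the sequence GFI1 binds, in capitals on either strand (GATT is its complement).
Rplp0, chr5:115559217-115559516, plus strand: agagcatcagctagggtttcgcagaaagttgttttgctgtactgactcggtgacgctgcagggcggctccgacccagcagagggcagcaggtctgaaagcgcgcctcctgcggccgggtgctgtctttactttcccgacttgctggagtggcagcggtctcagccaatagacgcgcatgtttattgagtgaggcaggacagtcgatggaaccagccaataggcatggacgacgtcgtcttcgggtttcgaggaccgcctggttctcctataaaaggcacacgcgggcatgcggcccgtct
Ifi202b, chr1:173982795-173983094, minus strand: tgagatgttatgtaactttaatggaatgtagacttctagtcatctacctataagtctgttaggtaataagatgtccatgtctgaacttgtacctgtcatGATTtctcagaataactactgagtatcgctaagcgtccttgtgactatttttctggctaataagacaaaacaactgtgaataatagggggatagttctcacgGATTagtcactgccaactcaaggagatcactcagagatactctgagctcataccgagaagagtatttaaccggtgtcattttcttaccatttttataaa
Slamf1, chr1:171766882-171767181, plus strand: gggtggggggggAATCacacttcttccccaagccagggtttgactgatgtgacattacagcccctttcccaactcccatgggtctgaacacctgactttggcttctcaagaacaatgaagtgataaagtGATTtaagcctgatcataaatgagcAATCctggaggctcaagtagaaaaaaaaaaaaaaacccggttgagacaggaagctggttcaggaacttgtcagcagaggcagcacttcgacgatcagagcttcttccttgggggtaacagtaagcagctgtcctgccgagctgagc
The Rplp0 window held no match, that of Ifi202b 2 and that of Slamf1 3. Of the 12 lower genes 11 had a window and 8 of these held AATC, and of the 12 higher genes 7 had a window and 6 held it. In all 32851 windows, 73.1% held it. A gene counted if any of its windows held AATC, while this percentage is per window, so these are unlike measures.

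Rplp0 was not alone in having one exonic stretch that separated the groups. Probe sets whose lowest array of one group was at least 2 above the highest of the other numbered 39, a threshold chosen after the values were seen, as were the genes named below from it, with 25 lower and 14 higher in SNP and 32 genes between them. The other pairs of genotypes gave between 25 and 60 such probe sets, and SNP against wtKI gave 78 without SNP 1. Of the 37 that belong to a named gene with further probe sets, 20 had further probe sets whose median differed by less than 0.5.

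Over all 105661 probe sets limma called 3, all higher in SNP. Besides that of Rplp0 they were probe set 10380858 of Cdk12, a kinase of transcription elongation, and probe set 10390737 of Top2a, the topoisomerase of dividing cells. The Cdk12 probe set was at 3.70, 4.26 and 4.04 on wtKI and at 8.69, 7.78 and 8.01 on SNP, a difference of 4.16 ± 0.41 (limma adjusted p = 0.0337 over probe sets). The Top2a probe set was at 8.95, 8.86 and 8.70 on wtKI and at 11.28, 11.35 and 10.97 on SNP, a difference of 2.36 ± 0.22 (limma adjusted p = 0.0246). The other 15 probe sets of Cdk12 had a median difference of 0.04 and the other 36 of Top2a one of -0.11. In both, all WT and KO arrays lay on the SNP side, so wtKI was the group apart. Without SNP 1 only the Rplp0 probe set was called, with a limma adjusted p of 0.000141.

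All 3 WT arrays were on the SNP side for 9 of the 14 higher probe sets and all 3 KO arrays for 5. Among them was 1 probe set of Cct6a, a chaperonin subunit, at 8.07, 8.29 and 7.18 on wtKI and 10.34, 11.31 and 11.03 on SNP. Another was of the zinc-finger gene Zfp729a. The probe set of P2rx7, an ATP-gated channel, was at 6.83, 6.48 and 6.56 on wtKI and 9.39, 10.08 and 10.03 on SNP. The other 12 probe sets of Cct6a had a median difference of -0.26 and the other 16 of P2rx7 one of -0.29. KO 1 and KO 2 were on the wtKI side of the P2rx7 probe set, at 5.82 and 6.34, and KO 3 on the SNP side at 10.11. A probe set of Anapc5, a subunit of the anaphase-promoting complex, had the same split, with KO arrays at 6.22, 5.29 and 9.95. The other 19 probe sets of Anapc5 had a median difference of -0.36. The P2rx7 and Anapc5 probe sets were not called (limma adjusted p of 0.626 and 0.633 over probe sets). Only 2 measured genes lie between P2rx7 and Anapc5 on chromosome 5. Rplp0 is on the same chromosome, with 67 measured genes between it and P2rx7 and 102 between it and Gfi1. Chromosome 5 held 5 of the named probe sets with this gap, against 7 on chromosome 7 and 7 on chromosome 11. Genes without overlap were 12.7% of those on chromosome 5 and 14.2% of all genes.

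Nlrp1a and Nlrp1b, inflammasome sensors that are direct neighbours on chromosome 11, differed in opposite directions. The Nlrp1a probe set was at 1.37, 1.35 and 1.40 on wtKI and 5.19, 5.02 and 8.25 on SNP, and the Nlrp1b probe set at 7.97, 7.48 and 7.13 on wtKI and 4.96, 3.55 and 2.86 on SNP. Neither passed the limma test over probe sets. The probe set of Abca13, a lipid transporter, was at 1.99, 1.49 and 1.47 on wtKI and 9.52, 6.97 and 6.43 on SNP. The wtKI values of Nlrp1a and Abca13 are under the 5th percentile of probe sets on their arrays, so the size of these differences is uncertain too.

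The 25 probe sets lower in SNP came from 18 named genes and from 1 stretch with no single symbol. Gdpd3 gave 4 of the 25, Ifi202b 3 and Sycp1 2. Single probe sets came from Atm, the DNA damage kinase, at 7.06, 7.31 and 6.84 on wtKI and 2.89, 4.25 and 1.48 on SNP, while its 52 others had a median difference of -0.16. Lrrc1 was at 6.39, 6.65 and 6.93 on wtKI and 2.71, 2.23 and 3.71 on SNP. Trim34a, near the Trim30 family on chromosome 7, was at 7.48, 8.31 and 8.26 on wtKI and 3.89, 3.59 and 4.20 on SNP, while its 4 others had a median difference of 0.35. For 20 of these 25 probe sets the WT arrays fell on both sides.

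**Figure D4:**
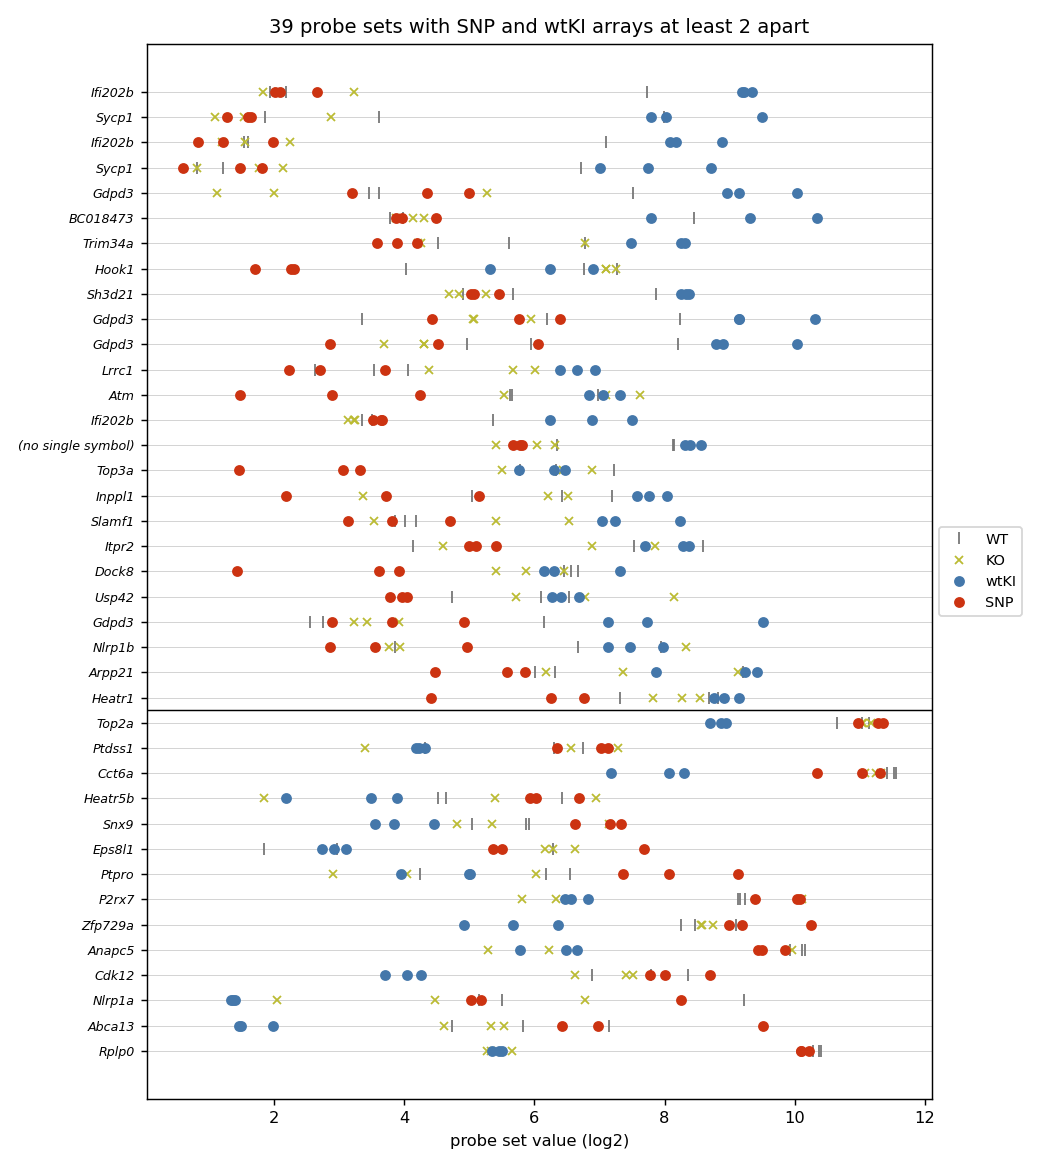
Log2 value on each of the 12 arrays for the 39 probe sets whose SNP arrays (red) and wtKI arrays (blue) lie at least 2 apart, with WT as grey bars and KO as crosses, and a line between the 25 lower and the 14 higher in SNP. The WT arrays fall on both sides for 20 of the 25 lower probe sets, and the bottom row shows Rplp0 with KO beside wtKI.

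Gene groups were described by counts and medians. Over all genes 47.8% of differences were above 0 with a median of -0.02, and without SNP 1 these were 49.7% and -0.00. The 37 lists with measured members held 630 genes, of which Rplp0 alone was called, and without SNP 1 none was called by limma (over all genes 762 had an unadjusted p under 0.05). On the lists, 56 genes (8.89%) had both an unadjusted p under 0.05 and no overlap, 28 in each direction. Over all genes 916 had both (6.46%), 424 higher (2.99%) and 492 lower (3.47%). The lists were chosen with earlier results of these data known, so a larger share on them is in part built in and is no finding.

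Genes of mature cells were highest on SNP 1. Late neutrophil genes, which encode secondary granule and calprotectin proteins, were higher in SNP for 26 of 26 with a median of 1.26, but the median was 0.23 without SNP 1. The mean of the list, relative to wtKI, was 3.53 on SNP 1, -0.01 on SNP 2 and 0.35 on SNP 3, against -0.38 to 0.24 on wtKI. WT 3 and KO 1 were both at 0.50. Only Ly6g and Trem3 had both an unadjusted p under 0.05 and no overlap. Ly6g, the granulocyte surface marker, was 3.18, 3.05 and 3.10 on wtKI 1 to 3 and 9.46, 3.32 and 5.90 on SNP 1 to 3, so SNP 2 was closest to wtKI, SNP 3 higher and SNP 1 highest. Trem3, a myeloid activating receptor, was 7.74, 8.998 and 7.59 on wtKI 1 to 3 and 9.98, 9.04 and 9.02 on SNP 1 to 3, with SNP 3 0.025 above wtKI 2. Lcn2, the iron-binding granule protein lipocalin 2, was 6.02, 6.84 and 3.85 on wtKI 1 to 3 and 10.61, 5.78 and 6.27 on SNP 1 to 3, groups that overlap. In bulk RNA a larger share of such cells and more RNA per cell cannot be told apart, and the part of these cells in other differences that rest on SNP 1 was not tested.

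Erythroid genes gave the same picture, with 15 of 17 higher, a median of 1.10 with SNP 1 and of 0.03 without it. The list's mean was 3.12 above wtKI on SNP 1, -0.24 on SNP 2 and 0.04 on SNP 3, and KO 1 was next at 1.21. Hbb-b1, a beta globin gene with a near-identical paralog, was 7.76, 6.92 and 3.90 on wtKI 1 to 3 and 11.52, 7.28 and 7.48 on SNP 1 to 3, and Rhag, a red cell membrane protein, was 4.27, 5.09 and 5.13 on wtKI 1 to 3 and 10.28, 4.90 and 5.08 on SNP 1 to 3. B-lineage genes were higher for 14 of 17, with a median of 0.63 that became 0.12. Ebf1, a transcription factor that specifies B cells, was 3.76, 2.64 and 3.40 on wtKI 1 to 3 and 9.38, 4.66 and 4.63 on SNP 1 to 3. SNP 1 was 4.73 above the next SNP array. All wtKI arrays, SNP 2 and SNP 3 were under the 5th percentile of probe sets on their array for Ebf1. Pax5, which maintains B-cell identity, was 5.48, 4.86 and 5.77 on wtKI 1 to 3 and 8.97, 5.43 and 6.01 on SNP 1 to 3, groups that overlap. The means of the B-lineage list were 2.34, -0.06 and 0.20 on SNP 1, SNP 2 and SNP 3.

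Genes of the progenitor state were low on SNP 1. The GMP identity list had 12 of 15 lower with a median of -0.41, and -0.10 without SNP 1. Its mean relative to wtKI was -0.92, -0.02 and -0.16 on SNP 1, SNP 2 and SNP 3. As a level, its mean on SNP 1 was 8.18, below those of the late neutrophil (10.31), erythroid (9.46) and B-lineage (8.95) lists there. In the same order these means were 9.07, 6.78, 6.10 and 6.55 on SNP 2. On SNP 3 they were 8.94, 7.13, 6.38 and 6.81. Stem and early progenitor genes were lower for 16 of 20 in both fits, with a median of -0.52 that became -0.27. In the list mean relative to wtKI, SNP 2 was at -0.55 and SNP 3 at -0.18, near wtKI 1 at -0.29. The WT arrays were as low as SNP 2 or nearly so, at -0.46, -0.56 and -0.38. KO 1 to 3 were at -0.22, -0.23 and -0.09, and wtKI 2 and wtKI 3 were highest at 0.08 and 0.21. Lmo2, a bridging factor of stem cell transcription complexes, was 9.20, 9.29 and 9.19 on wtKI 1 to 3 and 7.86, 8.97 and 8.91 on SNP 1 to 3, with SNP 1 far below the other 5 arrays.

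The list of Hoxa genes, Meis1 and their partners is studied for its part in myeloid leukaemia. It had 9 of 10 lower with a median of -0.66, and -0.31 without SNP 1. Its mean relative to wtKI was -1.23, -0.40 and -0.28 on SNP 1 to 3, with wtKI between -0.09 and 0.13. The WT arrays were also below wtKI, at -0.55, -0.55 and -0.20 on WT 1 to 3. KO 1 to 3 were at -0.64, -0.21 and -0.07. Hoxa9 was 9.20, 8.92 and 9.03 on wtKI 1 to 3 and 5.55, 8.78 and 9.34 on SNP 1 to 3. SNP 1 alone was low, and the difference of -1.16 ± 0.72 became 0.01 ± 0.25 without it. Meis1, its DNA-binding partner, was 7.27, 7.55 and 8.09 on wtKI 1 to 3 and 6.33, 6.82 and 7.77 on SNP 1 to 3, groups that overlap, with -0.66 ± 0.43, -0.34 without SNP 1 and 0.01 with sex as a term. Flt3, a cytokine receptor often mutated in myeloid leukaemia, was 7.86, 8.50 and 7.69 on wtKI 1 to 3 and 6.16, 7.65 and 7.53 on SNP 1 to 3, with the highest SNP array 0.04 below the lowest wtKI array. Csf1, the macrophage growth factor, was 6.22, 6.26 and 7.37 on wtKI 1 to 3 and 6.68, 5.37 and 5.99 on SNP 1 to 3, and Irf8, a transcription factor of monocytes and dendritic cells, was 8.30, 8.23 and 8.80 on wtKI 1 to 3 and 7.79, 8.12 and 8.32 on SNP 1 to 3. For both genes the groups overlapped. The difference of Csf1 was -0.60 ± 0.54, -0.93 without SNP 1 and -0.13 with sex as a term, and that of Irf8 was -0.36 ± 0.26, -0.22 without SNP 1 and -0.11 with sex as a term. Id2 was not analysed here.

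Genes reported elsewhere as targets of GFI1 were higher for 9 and lower for 13 of 22, with a median of -0.15, and 0.02 with sex as a term. With SNP 1 there were 4 higher without overlap (18.2% against 7.07% of all genes) and 0 lower, and 3 of the 4 had an unadjusted p under 0.05. Without SNP 1 there were 4 higher (18.2% against 11.2%) and 2 lower (9.09% against 11.3%). Egr2, a zinc-finger factor of the macrophage fate, was 7.53, 7.70 and 7.67 on wtKI 1 to 3 and 8.23, 8.11 and 8.40 on SNP 1 to 3. The difference was 0.61 ± 0.23 with SNP 1 and 0.62 ± 0.26 without it. Il7r, the interleukin 7 receptor, was 5.32, 5.30 and 4.05 on wtKI 1 to 3 and 10.30, 5.73 and 6.36 on SNP 1 to 3, and Fas, a death receptor, was 5.31, 5.77 and 5.49 on wtKI 1 to 3 and 8.32, 5.91 and 6.05 on SNP 1 to 3, both with SNP 1 at least 2.27 above the next SNP array. Of the 18 genes of the GFI1 corepressor complex, 13 were lower, with a median of -0.22 and of -0.08 without SNP 1. Kdm1a, the demethylase that GFI1 recruits, was 8.82, 8.80 and 8.33 on wtKI 1 to 3 and 6.25, 8.28 and 8.13 on SNP 1 to 3. Its difference was -1.10 ± 0.46 with SNP 1 and -0.45 ± 0.28 without it. Rcor3, a corepressor of the same complex, was 6.93, 7.08 and 7.26 on wtKI 1 to 3 and 6.17, 6.48 and 6.46 on SNP 1 to 3, a difference of -0.72 ± 0.27 and of -0.62 ± 0.29 without SNP 1.

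**Figure D5:**
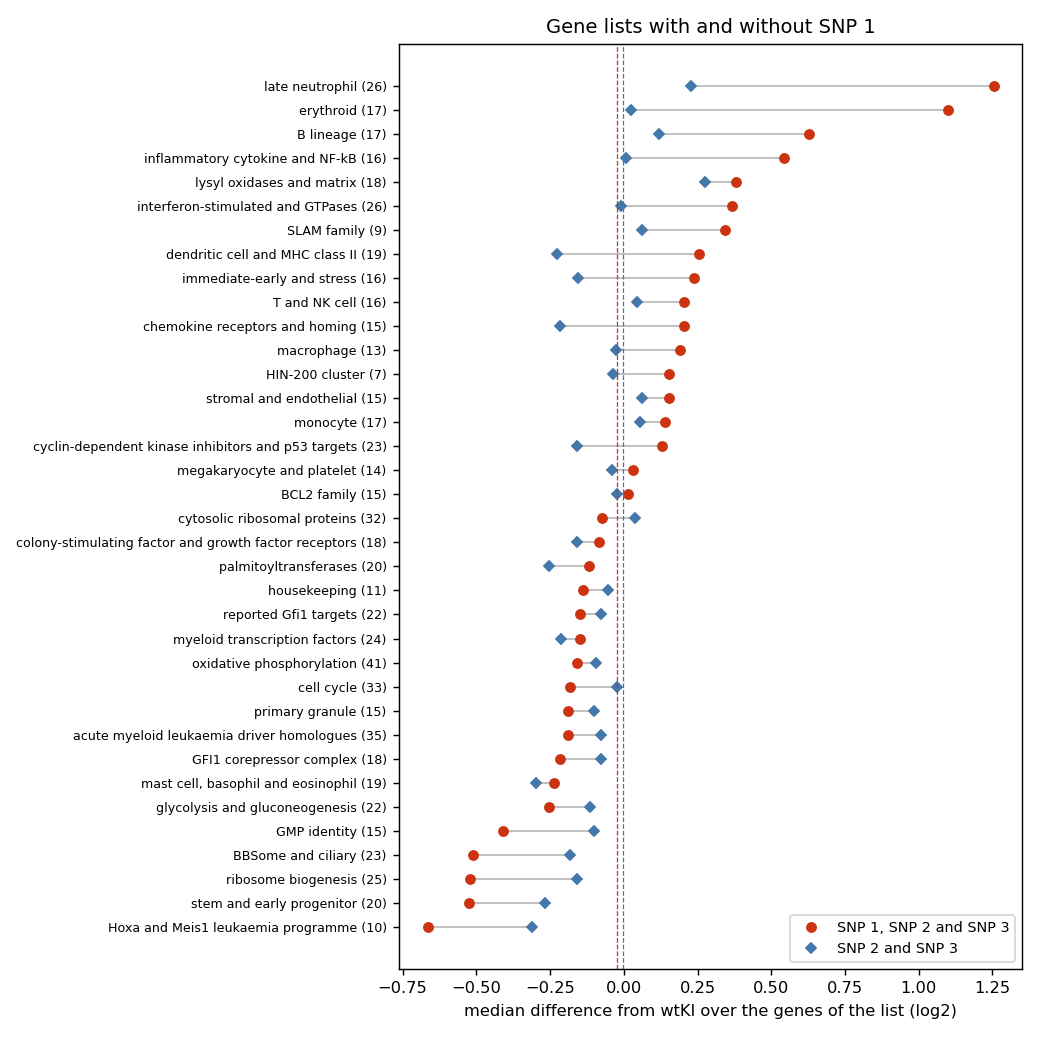
Median difference from wtKI (log2) over the measured genes of 36 lists, with the number of genes in brackets, for all 3 SNP arrays (red circles) and for SNP 2 and SNP 3 (blue diamonds), and dashed lines at the median of all genes. The late neutrophil and erythroid lists move from 1.26 and 1.10 to 0.23 and 0.03 when SNP 1 is left out.

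Genes of energy metabolism had more members lower than higher in both fits. Oxidative phosphorylation subunits were lower for 37 of 41, with a median of -0.16, and for 28 with a median of -0.09 without SNP 1. Of these subunits 10 were lower without overlap, 24.4% against 7.09% of all genes, and 11 without SNP 1, 26.8% against 11.3%. Uqcrc1, a core protein of complex III, was 9.72, 9.95 and 9.94 on wtKI 1 to 3 and 8.56, 9.32 and 9.17 on SNP 1 to 3, a difference of -0.85 ± 0.24. Atp5d, the delta subunit of the ATP synthase, was 7.99, 8.18 and 8.25 on wtKI 1 to 3 and 7.73, 7.75 and 7.38 on SNP 1 to 3, a difference of -0.52 ± 0.20 that was -0.58 without SNP 1. The list's means relative to wtKI were -0.49, -0.12 and -0.16 on SNP 1, SNP 2 and SNP 3, against -0.10 on wtKI 3. The WT list means were between 0.08 and 0.16. The housekeeping list also had more members lower in both fits, 9 of 11 with a median of -0.14. Without SNP 1 these were 7 with a median of -0.05. It had 0 members lower without overlap with SNP 1, and 1 (9.09%) without it.

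Glycolytic and gluconeogenic genes were lower for 16 of 22 with a median of -0.25, and for 15 with a median of -0.11 without SNP 1. Hk1, the first enzyme of glycolysis, was 8.04, 8.43 and 8.48 on wtKI 1 to 3 and 7.54, 7.87 and 7.72 on SNP 1 to 3, a difference of -0.61 ± 0.22.

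Ribosome biogenesis genes were lower for 24 of 25 with a median of -0.52, and for 14 with a median of -0.16 without SNP 1, and their list mean was -1.46, 0.11 and -0.27 on SNP 1, SNP 2 and SNP 3. Cytosolic ribosomal protein genes, the group of Rplp0, were lower for 22 of 32 with a median of -0.07 with SNP 1, and higher for 22 of 32 with a median of 0.04 without it. The list's mean was 0.24 on SNP 3. Rps2, of the small subunit, was 7.29, 8.20 and 7.84 on wtKI 1 to 3 and 6.65, 7.11 and 7.01 on SNP 1 to 3, a difference of -0.85 ± 0.30. Cell cycle genes were lower for 22 of 33, with a median of -0.18 and of -0.02 without SNP 1. Homologues of acute myeloid leukaemia driver genes were lower for 27 of 35, with a median of -0.19 and of -0.08 without SNP 1. Myeloid transcription factors were lower for 15 of 24, with a median of -0.15 and of -0.21 without SNP 1, and Stat5b, a transducer of cytokine signals, was 8.25, 8.29 and 8.54 on wtKI 1 to 3 and 6.99, 8.02 and 7.64 on SNP 1 to 3.

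Genes of the BBSome and of ciliary transport were lower for 19 of 23, with a median of -0.51 and of -0.18 without SNP 1. Beside Ttc8, Ift81, a subunit of the intraflagellar transport complex, was 6.20, 7.501 and 6.83 on wtKI 1 to 3 and 3.69, 5.53 and 5.47 on SNP 1 to 3, a difference of -1.95 ± 0.57. Ift52, of the same complex, was 8.63, 8.60 and 9.06 on wtKI 1 to 3 and 7.54, 8.04 and 8.01 on SNP 1 to 3, and the difference was -0.90 ± 0.26 with SNP 1 and -0.74 ± 0.28 without it. The list's means were -1.22, -0.29 and -0.32 on the SNP arrays, all below the lowest wtKI array at -0.11.

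Lysyl oxidase and matrix genes were higher for 17 of 18, with a median of 0.38 and of 0.27 without SNP 1. The list's means relative to wtKI were 0.96, 0.25 and 0.31 on the SNP arrays and -0.24 to 0.15 on wtKI. They were between -0.20 and 0.02 on WT, and 0.56, 0.18 and -0.28 on KO 1 to 3. Bgn, the proteoglycan biglycan, was 7.28, 6.16 and 6.52 on wtKI 1 to 3 and 7.34, 7.39 and 7.84 on SNP 1 to 3, a difference of 0.87 ± 0.32, and of 0.54 with sex as a term. Postn, periostin, was 6.32, 5.62 and 6.30 on wtKI 1 to 3 and 7.23, 6.53 and 6.79 on SNP 1 to 3, a difference of 0.77 ± 0.31. Timp3, an inhibitor of metalloproteinases, was the 1 lower gene of the list, at 6.45, 6.79 and 7.06 on wtKI 1 to 3 and 5.81, 5.95 and 5.61 on SNP 1 to 3. Stromal and endothelial markers had a median of 0.15, and of 0.06 without SNP 1, with 9 of 15 higher, and their part in the matrix genes was not tested.

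Interferon-stimulated genes were higher for 18 of 26, with a median of 0.37 that became -0.01 without SNP 1. Beside Iigp1, Oasl2, an oligoadenylate synthetase-like protein, was 5.42, 5.27 and 4.60 on wtKI 1 to 3 and 8.93, 6.89 and 5.82 on SNP 1 to 3, a difference of 2.12 ± 0.77 with SNP 1 and of 1.26 ± 0.66 without it. Isg20, an exonuclease, was 5.62, 5.56 and 6.28 on wtKI 1 to 3 and 8.56, 6.84 and 6.38 on SNP 1 to 3, and Usp18, which removes ISG15, was 5.98, 5.83 and 5.91 on wtKI 1 to 3 and 8.14, 6.28 and 6.68 on SNP 1 to 3. The list means were 1.10, 0.07 and -0.04 on SNP 1, SNP 2 and SNP 3.

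The HIN-200 genes near Ifi202b on chromosome 1 lay on both sides of 0. Aim2, a sensor of cytosolic DNA, was 9.29, 9.58 and 9.63 on wtKI 1 to 3 and 8.75, 8.73 and 8.61 on SNP 1 to 3, lower in SNP without overlap, with a difference of -0.80 ± 0.18 that was -0.83 ± 0.20 without SNP 1. Ifi209 was 9.07, 9.16 and 7.93 on wtKI 1 to 3 and 9.55, 9.77 and 9.31 on SNP 1 to 3 and Ifi207 was 6.72, 6.26 and 5.34 on wtKI 1 to 3 and 10.34, 7.40 and 7.03 on SNP 1 to 3, both higher in SNP without overlap. Of the 10 genes nearest to Ifi202b, 5 were higher and 5 lower, between -0.80 and 2.15. Slamf1 lies 28 measured genes away from Ifi202b, and of its own 10 neighbours 5 were higher and 5 lower, between -0.55 and 1.22. Among its relatives, Slamf8 was 6.08, 5.28 and 6.39 on wtKI 1 to 3 and 7.81, 6.48 and 6.49 on SNP 1 to 3 and Slamf9 was 7.37, 7.54 and 7.44 on wtKI 1 to 3 and 7.98, 7.79 and 7.91 on SNP 1 to 3, both higher in SNP.

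Single genes of other lists had no overlap at an unadjusted p under 0.05. Zmat3, a p53-induced RNA-binding protein, was 4.73, 7.04 and 6.69 on wtKI 1 to 3 and 3.93, 4.11 and 3.63 on SNP 1 to 3, a difference of -2.26 ± 0.66 and of -2.28 without SNP 1. With sex as a term the Zmat3 difference was -1.07, and wtKI 1 was the lowest wtKI array. Zmat3 rests on 1 probe set, and all 3 SNP arrays were under the 5th percentile of probe sets on their array. The size of its difference is therefore uncertain. Slc18a2, the vesicular monoamine transporter that mast cells and basophils use, was 7.69, 8.02 and 8.98 on wtKI 1 to 3 and 7.04, 6.33 and 7.34 on SNP 1 to 3, a difference of -1.33 ± 0.38. Ccl9, a chemokine, was 9.54, 8.85 and 8.89 on wtKI 1 to 3 and 8.49, 8.01 and 8.36 on SNP 1 to 3, a difference of -0.81 ± 0.28. Tcf7, a T-cell transcription factor, was 5.83, 5.19 and 5.57 on wtKI 1 to 3 and 7.15, 5.96 and 7.59 on SNP 1 to 3, a difference of 1.37 ± 0.51. Sparcl1, a matrix-associated glycoprotein, was 5.91, 5.61 and 6.59 on wtKI 1 to 3 and 7.08, 7.05 and 7.46 on SNP 1 to 3, a difference of 1.16 ± 0.38. For Zmat3, Slc18a2, Ccl9 and Sparcl1 the difference was at least as large in size without SNP 1.

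A further set of genes was chosen on SNP 2 and SNP 3 against wtKI, and for several of them SNP 1 lay on the other side of wtKI. They are the 8 in each direction with the smallest limma p without SNP 1 beyond those above, and adjusted p-values lay between 0.594 and 0.911. Hivep2, a zinc-finger protein that binds enhancer motifs of immune genes, was 7.42, 8.57 and 7.80 on wtKI 1 to 3 and 8.86, 3.64 and 5.15 on SNP 1 to 3. SNP 1 was above all wtKI arrays and SNP 2 and SNP 3 far below them, so the difference was -3.54 ± 0.81 without SNP 1 and -2.05 ± 1.13 with it. Cmah, the enzyme that makes N-glycolylneuraminic acid, was 5.25, 5.76 and 6.79 on wtKI 1 to 3 and 7.75, 4.06 and 3.46 on SNP 1 to 3, and Pdzd4 was 5.76, 6.84 and 6.97 on wtKI 1 to 3 and 8.51, 3.61 and 4.42 on SNP 1 to 3, with the same arrangement. Ifitm1, an interferon-induced membrane protein, was 8.69, 8.55 and 8.84 on wtKI 1 to 3 and 9.74, 7.63 and 7.48 on SNP 1 to 3, and Pde7b, a cyclic AMP phosphodiesterase, was 8.23, 7.77 and 7.69 on wtKI 1 to 3 and 8.84, 6.39 and 6.57 on SNP 1 to 3. For Ifitm1 and Pde7b SNP 1 was again the highest of the 6 arrays. Pram1, an adaptor protein of myeloid cells, was 7.63, 8.17 and 8.41 on wtKI 1 to 3 and 8.82, 7.03 and 6.92 on SNP 1 to 3.

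Mad2l2, a subunit of the shieldin and polymerase zeta complexes, and Tigd2 were lower on all 3 SNP arrays. Mad2l2 was 8.60, 8.62 and 8.79 on wtKI 1 to 3 and 7.94, 7.46 and 7.74 on SNP 1 to 3, a difference of -0.96 ± 0.22, and Tigd2 was 7.97, 8.27 and 8.14 on wtKI 1 to 3 and 5.66, 6.90 and 7.02 on SNP 1 to 3. The higher genes of this set were Abcb11, Nckap5, Gli2, Platr26, Gpm6b, Sacm1l, Fat3 and Aspn, with differences between 0.82 and 2.34 without SNP 1. Abcb11, the bile salt export pump, was 6.51, 6.73 and 7.34 on wtKI 1 to 3 and 7.52, 7.80 and 8.44 on SNP 1 to 3. Sacm1l, a phosphoinositide phosphatase measured by 21 probe sets, was 7.42, 7.25 and 6.95 on wtKI 1 to 3 and 7.69, 7.96 and 8.09 on SNP 1 to 3, a difference of 0.82 ± 0.23 without SNP 1. Aspn, the matrix proteoglycan asporin, was 6.96, 4.70 and 5.48 on wtKI 1 to 3 and 5.68, 8.52 and 7.59 on SNP 1 to 3, with wtKI 1 above SNP 1. Gli2, a Hedgehog pathway factor, was 7.43, 6.72 and 7.45 on wtKI 1 to 3 and 6.98, 8.31 and 8.10 on SNP 1 to 3, and Gpm6b was 6.51, 6.50 and 6.45 on wtKI 1 to 3 and 6.42, 7.29 and 7.45 on SNP 1 to 3, with SNP 1 lower than SNP 2 and SNP 3 in both.

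The genes on which SNP 1 differed most from SNP 2 and SNP 3 were chosen by that difference, and the values are a description. Cd36, a fatty acid receptor, was 4.52, 4.93 and 4.73 on wtKI 1 to 3 and 10.79, 4.90 and 4.27 on SNP 1 to 3. Scd1, a fatty acid desaturase, was 4.72, 3.09 and 4.83 on wtKI 1 to 3 and 10.26, 4.44 and 3.88 on SNP 1 to 3, and Il1r2, the decoy receptor of interleukin 1 on neutrophils, was 3.64, 4.52 and 5.19 on wtKI 1 to 3 and 10.83, 4.91 and 5.31 on SNP 1 to 3. Fpr2, a formyl peptide receptor of neutrophils, and Scrg1 completed the 5 genes highest on SNP 1, and on none of the 5 was another SNP array above 5.31. Itgb3bp, a centromere protein, was 8.30, 7.84 and 7.53 on wtKI 1 to 3 and 2.32, 7.98 and 8.26 on SNP 1 to 3. Trmt61b, Cldnd2, Cabcoco1 and Morn2 were also low on SNP 1, between 1.99 and 3.39, against 6.70 to 8.33 on SNP 2 and SNP 3.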

How the data were processed

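Sorted GMPs were measured on 12 Affymetrix arrays of the Mouse Gene 1.0 ST type, 3 per genotype. The deposited values are log2 signals, for which the submitters' processing notes name RMA without a version or settings. Of 105661 probe sets, 98975 carry 1 gene symbol in the platform annotation, 1703 several and 4983 none. The first were reduced to 14179 genes by the median of their probe sets, with a median of 5 per gene and 2856 genes on 1. Every probe set reaches 6.14 on some array, so genes low everywhere are missing. RefSeq (GRCm38.p6) held 14146 of these genes and served for current symbols and gene order. SNP and wtKI were compared by lmFit and eBayes of limma 3.58.1 (R 4.3.3) on all 12 arrays, with group as the term and with Benjamini-Hochberg adjustment and a threshold of 0.05, after tests on simulated data. The number of arrays limits the precision.

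The genes named are Gfi1 and Gfi1b; the 12 per direction with the smallest p among genes without overlap; up to 8 more per direction without SNP 1; 5 per direction set by SNP 1; members of gene lists at an unadjusted p under 0.05 without overlap, or among the 4 largest differences of a list; Hoxa9, Meis1, Csf1 and Irf8; and neighbours of Gfi1, Slamf1 and Ifi202b. Unnamed transcripts (Gm and Rik symbols and the like) were passed over. The comparison, these members and the lists were chosen with earlier results of these data known. Alternatives were other values per gene, other sets of arrays, array weights, sex and replicate terms, other normalizations, and each array left out in turn.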

Additional observations from a re-analysis of the deposited data

How the results depend on the processing

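The count of called genes was 1 in the fit reported and 1 with the 6 arrays alone (then Ifi202b), without KO 1 and SNP 1, with array weights, with a variance trend and robust prior, with median centring, with quantile normalization and with the dimmest 30% of genes left out. It was 0 with median polish, the mean of probe sets, the brightest probe set, the replicate block and sex as a term, and also with sex as a term or median centring without SNP 1. It was 4 with the SNP and wtKI arrays alone and without SNP 1 (Ifi202b, Ctse, Gm9078 and Phlpp1, all lower in SNP), and 3 with every probe set tested. Leaving out each array in turn gave 0 to 0 called genes, 616 (without wtKI 2) to 2208 (without SNP 2) at an unadjusted p under 0.05, and 2790 to 4523 genes without overlap, the last in part because fewer arrays overlap less often by construction. Genes at an unadjusted p under 0.05 were 1264 in the fit reported, 827 without the dimmest 30%, 456 with sex as a term, 320 with sex as a term and without SNP 1, 763 with median centring and without SNP 1, 391 with a difference of at least 1, and 8037 among all probe sets. Genes without overlap were 2008, 1290 without the dimmest 30% and 13805 among all probe sets. The cause of the lower counts with sex as a term was not tested. Settings without SNP 1 other than the plain one, the threshold for probe sets and the median of the probe sets' own differences were chosen after seeing the data.

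The replicate block gave 0 called genes and 1419 at an unadjusted p under 0.05. Same-numbered SNP and wtKI arrays had deviations that correlated at -0.0021, 0.09 and 0.05, so the numbers were not taken to pair the arrays.

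The direction reversed for Gfi1 (-0.46 by the brightest probe set), Gfi1b (0.069 by median polish, 0.0087 by the mean, 0.23 by the brightest), Rplp0 (-0.037 by the brightest and also by the median of its probe sets' own differences), Ifitm1 (0.068 by the mean), Cmah (0.41 by the brightest), Pram1 (0.29 by median polish, 0.19 by the mean, 0.23 by the brightest), Tcf4 (0.032 by the brightest) and Timp3 (0.17 by the brightest). It also reversed for Hoxa9 (0.0089 without SNP 1, without KO 1 and SNP 1 and on the SNP and wtKI arrays without SNP 1, 0.027 with median centring and 0.093 with sex, each without SNP 1, and -1.89 to 0.0089 with each array left out), Meis1 (0.011 with sex and 0.33 with sex and without SNP 1) and Irf8 (0.034 with sex and without SNP 1). Rplp0 passed the test in 6 of 21 alternatives, with values from -0.037 to 1.86. Of 2136 gene values under alternatives, 2100 kept direction and side of the threshold. Only Rplp0 was called in the fit reported, so the other genes could change side only by gaining a call.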
